A study of Sus scrofa with 23 samples.

Results

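Tissue factor F3 (ENSSSCG00000022447) and the interleukin 1 receptor accessory protein IL1RAP (ENSSSCG00000021206) were followed pig by pig in backfat, the subcutaneous fat of the back, as 2 of the 25322 genes counted. Both had been selected on their difference between group I and group II, from the study's list of genes for that contrast, and because pig 54 of group IV stood high for both. All comparisons of diets are therefore described without a test of these genes. Gene expression was measured by RNA-seq in 23 crossbred fattening pigs that received 1 of 4 diets. Group I (-cDDGS+rapeseed oil) had 7 pigs (4 females and 3 males) fed without corn dried distillers grains with solubles (cDDGS), the residue of ethanol production from maize. The other diets held cDDGS, with rapeseed oil for the 6 pigs of group II (+cDDGS+rapeseed oil; 3 females, 3 males), with tallow for the 5 pigs of group III (+cDDGS+beef tallow; 2 females, 3 males) and with coconut oil for the 5 pigs of group IV (+cDDGS+coconut oil; 3 females, 2 males). All pigs were kept under the same conditions, the females were gilts and the males barrows, and the pig was the replicate. Groups I and II differed in cDDGS and had the same added oil. According to the study, their feeds also differed in crude fat, starch, fiber and fatty acids. Groups III and IV differed from group I in cDDGS and in the source of fat, and these effects cannot be told apart. The RNA of the whole set was partly degraded, according to the study's methods.

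Tissue factor is a membrane receptor that binds coagulation factor VII and so starts the extrinsic coagulation cascade, which goes on through factor X and is held back by the inhibitor TFPI. IL1RAP is the co-receptor that the receptors of interleukins 1, 33 and 36 share. It passes the signal to the adaptor MYD88 and the IRAK kinases, which lead to NF-kB.

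Both genes were well covered, at a depth of 2437172 to 7979426 gene counts per library (median 4717511). F3 had between 178 and 1758 counts per pig and IL1RAP between 111 and 566. Levels are given as TMM-normalized CPM, which is a gene's share of its library on a scale common to all pigs and is not corrected for gene length, so that levels are compared between pigs and not between genes. The tissue label was checked with markers of adipocytes, of which 6 of 10 could be matched to an identifier. Their summed level lay between 2409 and 4289 CPM in every pig and none of the 6 was below 1 CPM on average. In such bulk tissue, fewer cells of a type and less RNA per cell cannot be told apart.

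F3 was lowest in group II, where its level lay between 41.0 and 145 CPM with a median of 78.2 CPM. In group I it ranged from 84.8 to 330 CPM around a median of 211 CPM. In group III, pigs 41, 43, 45, 46 and 48 had 243, 142, 250, 132 and 171 CPM. These 5 pigs lay inside the range of group I, and 5 of the 6 pigs of group II were below all of them. In group IV, pigs 49, 52, 53 and 55 had 88.2, 99.8, 109 and 126 CPM, whereas pig 54 had 355 CPM, the highest value of the 23 pigs. The mean of group IV, 156 ± 112 CPM (SD, n = 5), therefore described none of its pigs, and the other 4 had 106 ± 15.9 CPM (SD, n = 4). Groups I, II and III had means of 205 ± 92.8 (SD, n = 7), 88.4 ± 38.3 (SD, n = 6) and 188 ± 55.6 CPM (SD, n = 5).

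IL1RAP had the same lowest group and a narrower spread. Its level in group II lay between 26.3 and 61.1 CPM with a median of 42.7 CPM, and in group I between 58.2 and 96.0 CPM with a median of 77.5 CPM. The pigs of group III in the same order had 69.8, 56.8, 120, 75.1 and 83.7 CPM, and pig 45 was the highest of the 23 pigs. In group IV, pigs 49, 52, 53 and 55 had 56.8, 66.5, 64.1 and 62.8 CPM and pig 54 had 96.3 CPM, second only to pig 45. For IL1RAP, 4 of the 6 pigs of group II were below all pigs of group I, below all of group III and below all of group IV. From group I to group IV the means were 76.3 ± 16.1 (SD, n = 7), 43.7 ± 15.0 (SD, n = 6), 81.2 ± 24.1 (SD, n = 5) and 69.3 ± 15.5 CPM (SD, n = 5).

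**Figure D1:**
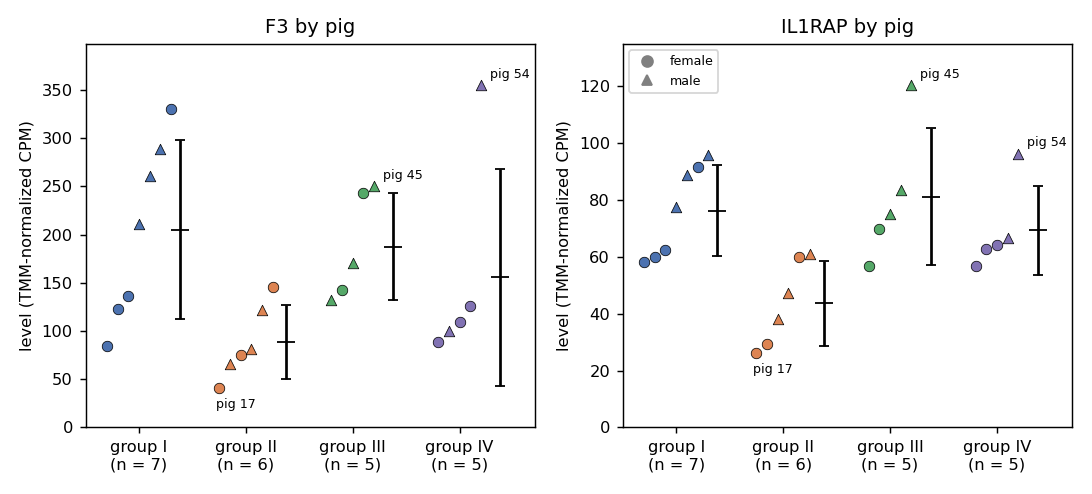
Levels of F3 (left) and IL1RAP (right) in TMM-normalized CPM, with 1 point per pig (circles, females; triangles, males) ordered by level within each diet group, and the group mean with its SD as a bar beside the points. Pig 17 of group II had the lowest value for both genes (41.0 and 26.3 CPM) and pig 54 of group IV stood apart from the other 4 pigs of its group (355 and 96.3 CPM).

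Ordered by mean, F3 ran from group I through groups III and IV to group II, and IL1RAP from group III through groups I and IV to group II. For both genes the neighbours among groups I, III and IV differed by less than the SD within either group. The step from group IV down to group II was larger than both SDs for IL1RAP. For F3 it was larger than the SD of group II but smaller than that of group IV, and without pig 54 the means, 106 and 88.4 CPM, differed by less than the SD of group II.

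The contrast that chose the genes was the one of cDDGS under rapeseed oil. In it, the edgeR log2 fold change of group II minus group I was -1.21 (SE 0.32) for F3 and -0.81 (SE 0.20) for IL1RAP. For each gene, 4 of 6 pigs of group II were below all 7 pigs of group I, and pig 21 of group II, with 145 CPM of F3 and 60.1 CPM of IL1RAP, lay inside the range of group I for both. The groups overlapped for both genes, so 0 of the 2 had every pig of group II below every pig of group I, a pattern that 0.242% of all genes tested showed. At an adjusted p under 0.05 and a fold change above 1.3, edgeR called 3 of 10323 genes (0.0291%), with 1338 genes at an unadjusted p under 0.05. DESeq2, the tool of the study, called 86 genes (0.833%), and limma-voom called 4 genes. Calls of the 2 members are not given and nothing is read from these counts, because the contrast was used in the choice.

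Pig 17, the lowest for both genes, also stood out in the coagulation pathway. It had the highest level of the 23 pigs for 10 of the 17 genes of this list with enough counts, F3 left out, against 4.89% of all genes. They were mostly genes of plasma proteins made by the liver, among them PLG (plasminogen, 94.2 CPM), FGG (fibrinogen gamma chain, 69.3 CPM) and F9 (factor IX, 22.8 CPM), named after their values were seen. Without pig 17 the log2 fold change of group II minus group I was -1.06 for F3 and -0.69 for IL1RAP.

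Groups III and IV were compared with groups I and II as a description, since these comparisons share their pigs with the one that chose the genes. Group III minus group I was -0.13 (SE 0.30) for F3 and 0.09 (SE 0.19) for IL1RAP, and group III minus group II was 1.09 (SE 0.28) and 0.90 (SE 0.24), all on the log2 scale. Both genes in group III were nearer to group I than to group II, with 95% intervals against group I of -0.76 to 0.51 for F3 and -0.30 to 0.48 for IL1RAP. Group IV minus group I was -0.40 (SE 0.38) for F3 and -0.14 (SE 0.16) for IL1RAP. Group IV minus group II was 0.80 (SE 0.37) for F3 and 0.66 (SE 0.22) for IL1RAP. Without pig 54, the F3 values changed to -0.95 (SE 0.31) against group I and 0.25 (SE 0.27) against group II. In these fits 1 pig decided whether F3 in group IV lay nearer to group I or to group II. The model mattered as well. With pig 54 kept and reads outside genes as covariate, the F3 values were -1.10 against group I and 0.63 against group II. For IL1RAP the values without pig 54 were -0.28 (SE 0.16) against group I and 0.52 (SE 0.22) against group II.

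Group IV against group III set coconut oil against beef tallow, both with cDDGS. It shares no pig with the contrast that chose the genes, but it holds pig 54, which the choice names, so it is a description too. F3 was lower in 4 of 5 pigs of group IV than in every pig of group III, but pig 54 was higher than all of them. The log2 fold change was -0.27 (SE 0.36, 95% interval -1.03 to 0.50). It was -0.82 (95% interval -1.28 to -0.36) without pig 54, and -1.03 (95% interval -1.83 to -0.23) with reads outside genes as covariate, whose share peaked in pig 54. For IL1RAP the groups overlapped, and the log2 fold change was -0.22 (SE 0.20, 95% interval -0.66 to 0.21), and -0.37 (95% interval -0.79 to 0.05) without pig 54. edgeR called 0 of 10230 genes in this comparison (0%), with 421 at an unadjusted p under 0.05, and DESeq2 and limma-voom also called 0.

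**Figure D2:**
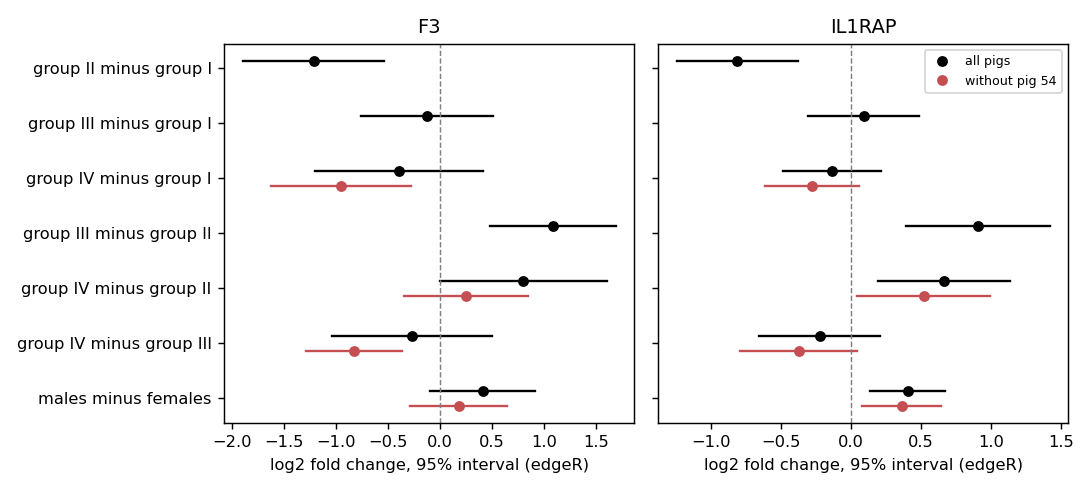
edgeR log2 fold changes (points) and 95% intervals (lines) of F3 (left) and IL1RAP (right) in each comparison, with all pigs (black) and without pig 54 (red) where that pig enters. Leaving out pig 54 moved F3 from -0.27 to -0.82 in group IV minus group III and from 0.80 to 0.25 in group IV minus group II, while IL1RAP moved less.

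Pig 54, a male, had 3.36 times the mean F3 level of the other 4 pigs of group IV and 1.54 times their IL1RAP level. On the log2 scale the difference was 1.75 for F3, and 0.399% of the 11039 genes with enough counts had a larger one. For IL1RAP it was 0.62, and 7.07% of genes had a larger one, whereas the median of all genes was 0.01. Both genes were chosen partly because pig 54 stood high for them, so these shares only describe the choice. Pig 54 was the highest pig of its group for 20.1% of genes, which is close to an equal share for each of 5 pigs. It was highest for 2 of 17 genes of the coagulation list, 1 of 13 of the IL-1 family list, 2 of 21 of the NF-kB list and 4 of 12 of the immediate early genes, the members left out. Its share of reads outside genes, 71.3%, was the highest of the 23 pigs, where the range was 51.1% to 71.3%. Its summed macrophage markers were the lowest of group IV at 81.8 CPM. Its 2 skeletal muscle markers had a median 2.23 log2 units above the rest of the group, but it was the highest pig for 0 of the 2. Their sum was 240 CPM in pig 54 and 823 CPM in pig 52 of the same group. The part of these values in the F3 level of pig 54 was not tested.

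F3 varied more between pigs on the same diet than most genes of its level. The SD within groups was 0.67 on the log2 scale, against a median of 0.24 over 1163 genes within 2-fold of its mean level, and 2.32% of these had a larger SD. Without pig 54, which the choice names, the SD of F3 was 0.58. IL1RAP had an SD within groups of 0.39, against a median of 0.25 over 2380 genes of its level, 14.9% of which had a larger one. Without pig 54 the SD of IL1RAP was 0.37. The shares of genes with a larger SD include pig 54 for both genes and were not computed without it, so they are a description.

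Whether both genes went together from pig to pig was examined on deviations from the group means. Over all 23 pigs the correlation of F3 with IL1RAP had a Pearson's r of 0.502 (permutation within groups, p = 0.0181) and a Spearman's rho of 0.436 (p = 0.0477). Since pig 54 was part of the choice, the values to read are those without it, which were r = 0.408 (permutation p = 0.102) and rho = 0.344 (p = 0.168). Without pigs 54 and 3, the pigs farthest in F3, r was 0.376 (permutation p = 0.171). Without pig 17 instead, r was 0.412 (permutation p = 0.0575), so that the relation passed 0.05 only with both pig 54 and pig 17 included. Pig 5 of group I was an example of the looseness of the relation, with 330 CPM of F3, the highest of its group, and 58.2 CPM of IL1RAP, the lowest.

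**Figure D3:**
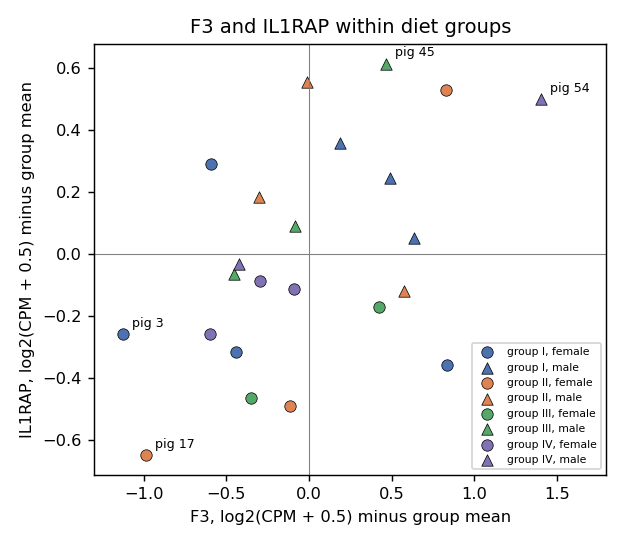
Deviation of F3 (x axis) and IL1RAP (y axis) from the mean of the pig's diet group, in log2(CPM + 0.5), with 1 point per pig coloured by group (circles, females; triangles, males). Pig 54 was highest in F3 (1.40) and pig 3 lowest (-1.12), while pig 45 was highest in IL1RAP (0.61) and pig 17 lowest (-0.65). Without pig 54, r fell from 0.502 to 0.408.

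Sex was not used in the choice of the genes, but pig 54, which the choice names, is a male, so the values without it are the ones to read. IL1RAP was higher in males, with 77.3 ± 23.6 CPM (SD, n = 11) against 58.2 ± 17.0 CPM (SD, n = 12) in females. Males had the higher mean log2 level in all 4 diet groups, by 0.38, 0.41, 0.53 and 0.39 from group I to group IV. In edgeR with diet group as covariate, the log2 fold change of males minus females was 0.40 (SE 0.13, 95% interval 0.14 to 0.67), and without pig 54, which leaves 1 male in group IV, it was 0.36 (95% interval 0.08 to 0.65). The permutation test within diet groups gave p = 0.0143 without pig 54 and p = 0.00636 with it. Over all genes the difference did not pass the threshold, with an adjusted p of 0.204 in edgeR without pig 54, and with it of 0.126 in edgeR, 0.0560 in DESeq2 and 0.0848 in limma-voom. Of the 23 fits that left out 1 pig, the one without pig 21 passed it (log2 fold change 0.51, adjusted p from edgeR 0.0432). Pig 21 had 60.1 CPM, the highest level among the females of group II but only rank 15 of the 23 pigs. For F3, males had 185 ± 94.6 CPM (SD, n = 11) and females 137 ± 78.5 CPM (SD, n = 12). The differences of males minus females in the 4 groups were 0.77, 0.18, -0.06 and 0.82, so the direction was not shared by all groups. The log2 fold change was 0.41 (SE 0.24, 95% interval -0.09 to 0.92), with an adjusted p of 0.385 from edgeR and p = 0.134 in the permutation test. Without pig 54 it was 0.18 (95% interval -0.29 to 0.65), with an adjusted p of 0.719 from edgeR and p = 0.387 in the permutation test. edgeR called 98 of 10276 genes between the sexes (0.954%; 27 higher and 71 lower in males) and 0 of the 2 members, with 1820 genes at an unadjusted p under 0.05. DESeq2 called 257 genes and limma-voom 76, neither with F3 or IL1RAP.

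Of the markers of other cells, LYVE1 of the macrophage list (log2 fold change -0.98, adjusted p = 0.0386) and COL1A2 of the fibroblast and progenitor list (-0.82, adjusted p = 0.0282) were called lower in males by edgeR, named after their values were seen. All 5 macrophage markers tested and all 7 fibroblast and progenitor markers tested had lower values in males, with medians of -0.42 and -0.57, against -0.02 over all genes. No skeletal muscle marker was called, with a smallest adjusted p of 0.076 from edgeR. Both of the 2 tested were higher in males at an unadjusted p under 0.05, against 17.7% of all genes in either direction. Their median log2 fold change was 2.82. The summed skeletal muscle markers had a median of 287 CPM in males (13.4 to 1801 CPM) and 36.4 CPM in females (1.10 to 933 CPM), and the fibroblast and progenitor markers 8562 CPM in males and 11987 CPM in females. The summed macrophage markers had a median of 126 CPM in males (38.7 to 181 CPM) and 146 CPM in females (56.5 to 337 CPM). Within diet groups, IL1RAP had a Pearson's r of 0.149 with the skeletal muscle sum (permutation p = 0.514) and -0.381 with the fibroblast and progenitor sum (permutation p = 0.103). The part of these cells in the difference between the sexes was not tested.

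The levels of F3 were set against summed markers of other cells within the diet groups, and no relation passed adjustment. Its correlation with the summed adipocyte markers had an r of 0.568 (permutation p = 0.00855) and a rho of 0.594 (p = 0.00731), and that with the summed macrophage markers an r of -0.563 (permutation p = 0.0109) and a rho of -0.621 (p = 0.00613). The adjustment covered 28 relations of F3 and IL1RAP. They were those with the marker sums, gene counts, the share of reads outside genes and the share of the gene with most counts. None of the 28, given p-values after the data were seen, passed Benjamini-Hochberg adjustment. For F3 with the adipocyte and the macrophage sum, the adjusted permutation p was 0.153 for r and 0.102 for rho in both. Without the 2 pigs farthest in the marker sum, r was 0.548 for adipocytes and -0.501 for macrophages, and without pig 54 it was 0.658 and -0.519. IL1RAP had an r of 0.087 with the adipocyte markers (permutation p = 0.745; rho = -0.011, p = 0.967) and of -0.291 with the macrophage markers (permutation p = 0.170; rho = -0.287, p = 0.202). The difference between F3 and IL1RAP in these correlations was not tested.

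The macrophage markers were also described by diet group, and the range of their sum in group II overlapped that of every other group. From group I to group IV their sum had ranges of 38.7 to 163, 153 to 337, 67.3 to 207 and 81.8 to 181 CPM, the highest being that of group II, where F3 was lowest. Of 7 matched macrophage markers 1 was below 1 CPM on average. The ranges of the adipocyte sum were 2928 to 4289, 2409 to 3909, 2898 to 3352 and 2746 to 3293 CPM. In group II minus group I, 5 of 5 macrophage markers tested had an unadjusted p under 0.05 and a higher value, against 12.96% of all genes (676 higher and 662 lower), and the 6 adipocyte markers had a median log2 fold change of -0.34. None of these markers passed the adjusted threshold. The macrophage list was chosen with earlier results of these data known. It holds MRC1 and C1QA, and the study had reported MRC1 and C1Q as changed by cDDGS, so this share is a description. The part of either cell type in the levels of F3 and IL1RAP was not tested.

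**Figure D4:**
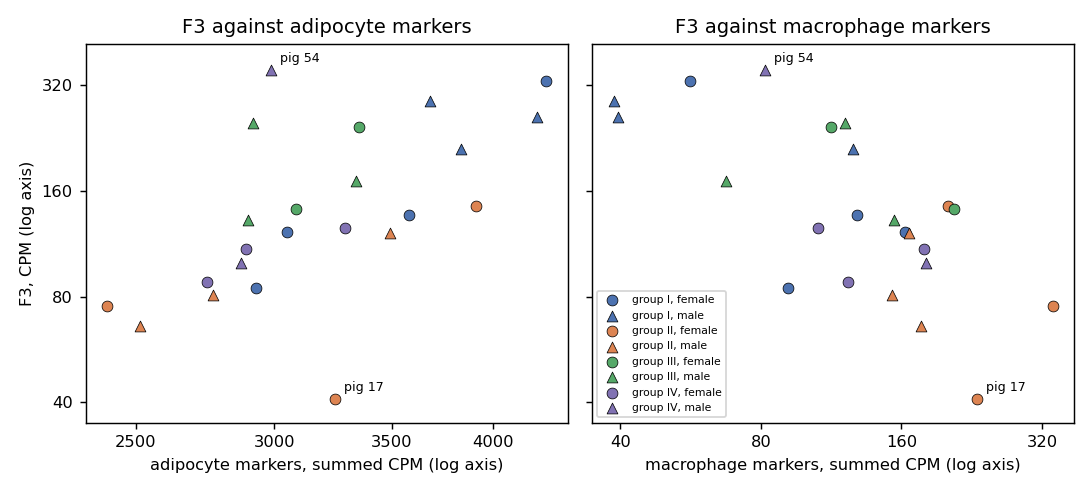
F3 level in CPM against the summed CPM of 6 adipocyte markers (left) and 7 macrophage markers (right), all on log axes, with 1 point per pig coloured by diet group (circles, females; triangles, males). Within groups F3 had an r of 0.568 with the adipocyte sum and -0.563 with the macrophage sum, and pig 17 had little F3 at a middling adipocyte sum.

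Many partners of tissue factor had few counts in backfat. F7 (factor VII, its ligand) was at most 1.15 CPM and had no counts in 11 pigs, and F2RL1, a receptor cleaved downstream of it, had group means from 0.163 to 0.560 CPM. F10 (factor X) had group means of 1.43, 2.98, 2.95 and 3.33 CPM in groups I to IV. The inhibitor TFPI had 2.19, 1.58, 1.60 and 1.36 CPM. More counts were found for its relative TFPI2 (47.4, 49.7, 45.1 and 43.8 CPM), F13A1 (the A chain of factor XIII, which crosslinks fibrin) and PROCR (the receptor of protein C). TFPI2 had a log2 fold change of 0.07 (SE 0.13) in group II minus group I. F13A1, also made by macrophages, had 10.7, 27.6, 15.2 and 14.3 CPM, with a log2 fold change of 1.34 (SE 0.38) and an edgeR adjusted p of 0.221 in group II minus group I. PROCR had 14.4, 18.2, 15.4 and 10.6 CPM. No identifier was matched to F2R or THBD.

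Of the rest of the coagulation list, 12 of 23 genes with an identifier were tested in group II minus group I. None was called, against 0.0291% of all genes. At an unadjusted p under 0.05, 5 were higher and 0 lower (41.7%, against 12.96% of all genes). The median log2 fold change was 0.98, against 0.003 over all genes. While F3 was lower in group II, 2 of these 12 genes had a lower value there. On another measure, the difference in mean log2(CPM + 0.5), the median over the same 12 genes was 0.32 with all pigs and 0.07 without pig 17. This comparison was added after the data were seen, and the median log2 fold change from edgeR was not computed without pig 17. In group IV minus group III, 13 were tested, 0 were called and the median log2 fold change was -0.04. In males minus females 12 were tested, 0 were called and the median log2 fold change was -0.11.

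Among the partners of IL1RAP, the signalling receptor IL1R1 had 93.8, 69.9, 86.7 and 69.4 CPM in groups I to IV. Its log2 fold change in group II minus group I was -0.43 (SE 0.19; edgeR adjusted p = 0.357). The decoy receptor IL1R2, the interleukin 18 receptor chains IL18R1 and IL18RAP and the inhibitory receptor SIGIRR had group means under 1 CPM. Of the ligands, IL33 had 17.6, 17.1, 12.4 and 13.6 CPM and IL1A 0.962, 2.66, 1.14 and 1.05 CPM, with its highest value, 6.45 CPM, in pig 17. The adaptor MYD88 had 8.42, 5.98, 5.76 and 6.10 CPM, the kinase IRAK1 10.8, 9.37, 8.77 and 9.71 CPM and the kinase IRAK4 25.3, 27.7, 25.5 and 24.0 CPM. No identifier was matched to IL1B, IL1RN, IL1RL1 or TRAF6.

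In group II minus group I, 12 of 22 genes of the IL-1 family list were tested without IL1RAP. None was called, against 0.0291% of all genes. At an unadjusted p under 0.05, 0 were higher and 2 lower (16.7%, against 12.96% of all genes), and the median log2 fold change was -0.12. The NF-kB and inflammatory response list had 21 of 24 genes tested, 0 called, 1 higher and 2 lower at that level (14.3%) and a median of -0.09. The immediate early genes had 10 of 13 tested, 0 called, 0 higher and 1 lower and a median of -0.22. In group IV minus group III, the medians of these 3 lists were 0.01, 0.01 and 0.39, and in males minus females they were -0.07, -0.06 and -0.30, with 0 called in each.

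The genes whose pattern was most like F3 over the 23 pigs, by r of the deviations from group means among 6240 named genes with at least 5 CPM, were TTLL4 (r = 0.817), DDX31 (0.720), CEBPG (0.708), PPP1R15B (0.697) and BRPF3 (0.696). TTLL4 encodes a tubulin ligase-like enzyme, DDX31 an RNA helicase, CEBPG a transcription factor of the C/EBP family, PPP1R15B a regulatory subunit of protein phosphatase 1 and BRPF3 a bromodomain protein. Without pig 54, TTLL4 had an r of 0.843. For IL1RAP they were ARL6IP6 (0.839), LIFR (0.827), WASHC4 (0.810), ATOSA (0.808) and PSME4 (0.789), of which LIFR is the receptor of leukemia inhibitory factor and PSME4 an activator of the proteasome. The 95th percentile of r was 0.431 for F3 and 0.383 for IL1RAP. IL1RAP ranked 145th among the genes most like F3, and F3 ranked 110th among those most like IL1RAP. These are the highest of many values over pigs that share library and depth effects, and they are a description.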

How the data were processed

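Stranded libraries of ribosome-depleted total RNA were sequenced single-end. The authors deposited raw counts per Ensembl gene for each pig, made with TopHat and HTSeq, and whether counting used strand is not given in the sources used here. Sequencing was run in replicate, and how runs were merged is not given in the sources used here. Of 25322 identifiers, 11804 were matched to a symbol, and no coordinates are given. No pair of pigs of a group agreed within sampling noise (smallest chi-square per degree of freedom 5.42). The 5 summary entries per pig stayed out of all fits. Counts were fitted with edgeR 4.0.16 (TMM, filterByExpr, glmQLFit, glmQLFTest) in R 4.3.3 over all genes of the pigs compared, with Benjamini-Hochberg adjustment, and DESeq2 1.42.0 and limma-voom (limma 3.58.1) were alternatives. SE is the size of the log2 fold change divided by the square root of F. Scripts were tested on simulated data. Permutation tests within groups used log2(CPM + 0.5), with 100000 resamples and two-sided p-values. A planned test of group IV against group III is not given for the members, because the choice names pig 54. Correlations with marker sums, gene counts, reads outside genes and the share of the gene with most counts were given p-values after the data were seen. The sexes were compared by permutation without pig 54, also after the data were seen. Genes named were F3, IL1RAP, a fixed list of their partners and the 5 genes most like each, and 1 partner is not reported here. The members, lists and markers were chosen with earlier results of these data known. Further alternatives were other normalization, filters and covariates (sex, RIN, reads outside genes), all pigs in 1 fit and leaving out each pig. Reads outside genes are uniquely mapped reads assigned to no gene.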

Additional observations from a re-analysis of the deposited data

Results flagged for a closer look

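Pig 54 of group IV stood apart for both genes on the CPM scale, with 355 CPM of F3 and 96.3 CPM of IL1RAP. Its gap to the nearest pig of the group was 0.859 of the group's whole range for F3 and 0.755 for IL1RAP, both in CPM. These are above Dixon's 95% critical value of 0.71 for 5 pigs. For IL1RAP this depends on the scale. In log2(CPM + 0.5), pigs 54, 52 and 49 deviated from the group mean by 0.497, -0.034 and -0.259, a gap slightly under the critical value. Chance gives such a gap in about 1 in 20 groups, and 8 sets of 1 gene in 1 group were looked at. Pig 54 was part of the choice of these genes, so the gaps are a description. In the other 6 sets no pig stood apart by this measure.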

How the results depend on the processing

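The number of genes called in group II minus group I was 3, but 86 with DESeq2, 5 with sex as covariate, 0 with RIN, 0 with reads outside genes as covariate, 0 with all 23 pigs in 1 fit, and 0 to 17 when each pig was left out (17 without pig 1 of group I). In the same comparison F3 stayed between -1.41 and -1.06 and IL1RAP between -0.95 and -0.69 in every alternative, the left-out pigs included. F3 in group IV minus group I was -1.10 with reads outside genes as covariate, against -0.40. In group IV minus group III the same covariate gave 1 gene called, against 0, and -1.03 for F3 (95% interval -1.83 to -0.23), against -0.27. Pig 54 has the highest share of such reads, and the cause was not tested. Between males and females 98 genes were called, but 257 with DESeq2, 158 without a low-count filter, 57 with RIN, 57 with reads outside genes and 33 to 187 with each pig left out (33 without pig 43 and 187 without pig 5). IL1RAP in males minus females was between 0.36 and 0.51 with each pig left out, and passed the threshold only without pig 21. The r of F3 with IL1RAP was between 0.408 and 0.619 with each pig left out, and the permutation p was above 0.05 without pig 54 (0.102) and without pig 17 (0.0575). F3 and IL1RAP in group III minus group I crossed 0 in some alternatives (-0.26 to 0.03 and -0.10 to 0.19). Group sizes of 5 to 7 pigs, degraded RNA and the spread of F3 limit what these comparisons can show.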
